A study of Drosophila melanogaster with 18 samples.

Results

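The antioxidant response governed by cnc was followed in DL1 cells, a cultured Drosophila melanogaster line, through 10 genes chosen for their known place in that pathway: cnc, Keap1, maf-S, Gclc, Gclm, Trxr1, Cat, Sod1, Sod2 and ref(2)P. The choice was made with earlier results of these data known, so it was not blind to them. Each was found in the deposited table by its FlyBase symbol, so that 10 of 17753 listed genes were members, and all 10 passed the filter on low counts and were among the 8174 genes tested. The study asked how excess IntS6 or IntS12, subunits of the Integrator complex that cleaves nascent RNA polymerase II transcripts, alters gene expression. The 6 groups of 3 rRNA-depleted RNA libraries were the FLAG-IntS6 line with copper, the FLAG-IntS12 line with copper, each of these lines without copper, parental DL1 cells with copper and parental DL1 cells without copper. Copper was 500 µM copper sulfate for the last 24 h of 3 d at 25 °C. Each line was a puromycin-selected stable population with its transgene behind the copper-inducible MtnA promoter, and the labels' genotype field calls the lines without copper WT. Every induced group therefore also carried copper, and parental cells with copper were its matched control. The labels do not say whether the replicates A, B and C were grown separately, and p-values therefore reflect only the spread among these libraries, which may be technical.

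In insects, cnc encodes the Cap'n'collar transcription factors, of which the longest isoform is the counterpart of mammalian Nrf2. Keap1 holds that protein in the cytoplasm and targets it for degradation, and oxidants or electrophiles release it to bind antioxidant response elements together with the small Maf protein encoded by maf-S. Known target programmes include glutathione synthesis, the thioredoxin system and detoxification enzymes. Copper ions can generate reactive oxygen species and bind thiols.

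Library totals ran from 13217637 to 18214647 rounded counts, and genes other than rRNA took 3.69 to 4.94 M of them. IntS6 averaged 2366 ± 174 CPM (counts per 1000000 on TMM-scaled library sizes; SD, n = 3) in its line with copper and 36.3 ± 1.45 CPM in parental cells with copper. IntS12 averaged 92.9 ± 3.92 CPM in its line with copper and 3.62 ± 0.317 CPM in parental cells with copper. Each transgene was thus highest where its label places it. Without copper IntS6 already stood at 71.4 ± 3.58 CPM in its line and 28.0 ± 1.51 CPM in parental cells (2.55-fold, edgeR adjusted p = 1.31e-10), and IntS12 at 8.44 ± 1.29 CPM in its line and 4.98 ± 0.512 CPM in parental cells (1.68-fold, adjusted p = 0.0366). DL1 cells are used as a haemocyte-like line. In sum, 12 plasmatocyte markers held 338 to 386 CPM in copper-treated parental cells and 444 to 567 CPM in parental cells without copper. Of 11 markers tested, 4 were called higher and 4 lower with copper, beside 19.3% higher and 19.4% lower of all genes. In the IntS6 line with copper the 12 markers summed to 441 to 563 CPM, above the range of copper-treated parental cells. In that comparison 4 were called higher and 0 lower, beside 7.45% higher and 1.46% lower of all genes. The IntS12 line with copper gave 351 to 411 CPM. Such a sum gives most weight to the most abundant markers. Of 4 fat body markers, Lsp1alpha, Lsp2 and Yp1 were at 0 in all 18 libraries. Crystal cell markers reached at most 0.997 CPM in sum and muscle markers 0.333 CPM, and neuron markers spanned 14.1 to 23.8 CPM. Lamellocyte markers summed to 7.50 to 10.9 CPM in the IntS6 line with copper and 3.12 to 4.91 CPM without, to 6.91 to 10.0 CPM in the IntS12 line with copper and 4.13 to 6.15 CPM without, and to 6.22 to 11.1 CPM in parental cells with copper and 3.77 to 5.26 CPM without. Germline markers summed to 19.0 to 31.6 CPM in copper-treated parental cells, against 4.40 to 8.78 CPM in untreated ones. Only 1 of 3 lamellocyte markers and 1 of 3 germline markers passed the filter on low counts. Each of these was called higher with copper in parental cells, so such sums may reflect a single gene. The part of these shifts in the results was not tested, and in bulk RNA fewer cells of a type and less RNA per cell cannot be told apart.

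Copper raised 7 of the 10 genes in parental cells and lowered 0, and the 7 were cnc, Keap1, Gclc, Trxr1, Cat, Sod1 and ref(2)P. Of all genes tested, 19.3% were called higher and 19.4% lower in this comparison, at an adjusted p under 0.05 in edgeR's quasi-likelihood test with Benjamini-Hochberg adjustment over all 8174 genes. The same 7 genes were called higher in the IntS6 line, where 23.2% of all genes rose and 19.3% fell, and in the IntS12 line, where 19.2% rose and 17.6% fell. For each of these 7 genes, every library with copper lay above every library without copper within its own kind of cell. How many of all genes separated in this way was not counted, so this only describes the genes called. maf-S, Gclm and Sod2 were not called in any of the 3 comparisons. The median log2 fold change of the 10 genes was 0.56 in the IntS6 line, 0.52 in the IntS12 line and 0.45 in parental cells, beside medians of -0.01, 0.01 and 0.00 over all genes tested.

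**Figure D1:**
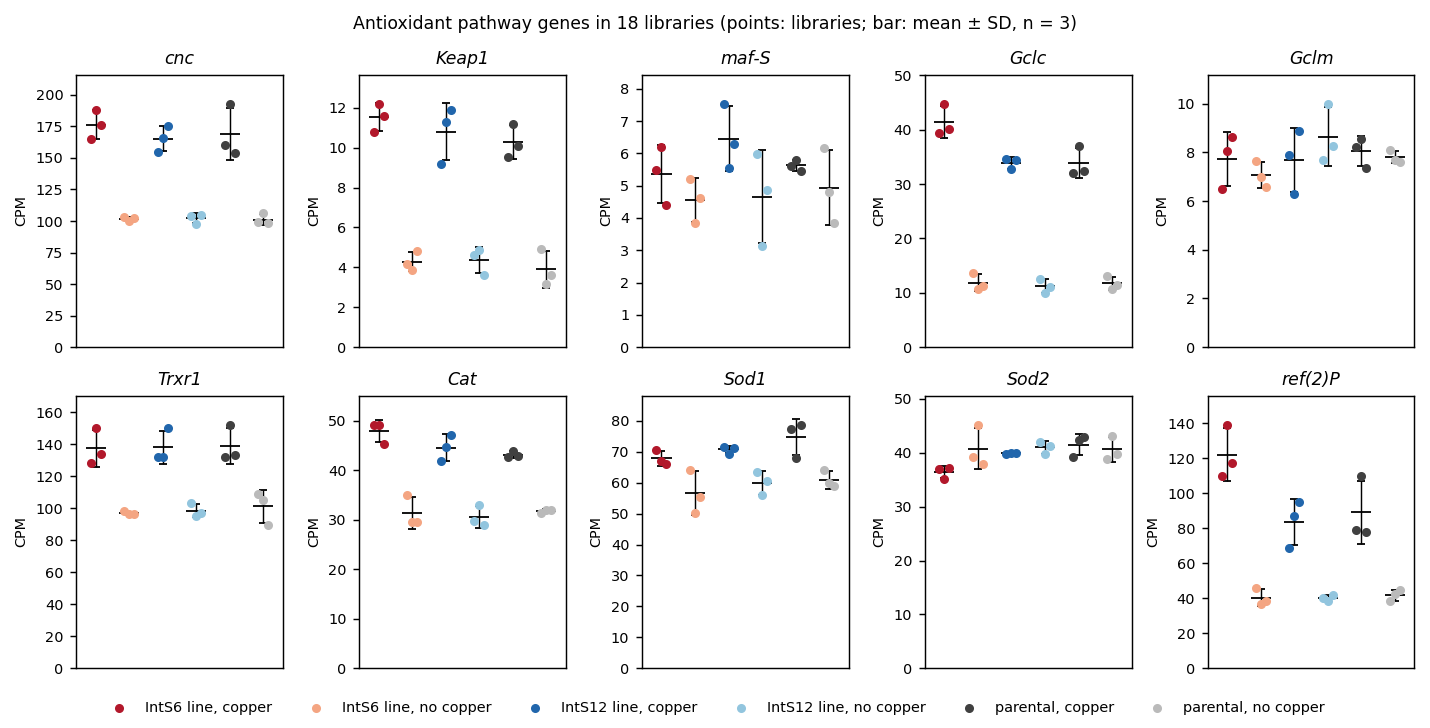
CPM of each of the 10 genes (vertical axes from 0, own scale for each gene) in the 3 libraries of each of the 6 groups, with the mean and SD as black bars. Points with copper lie clear of those without copper for cnc, Keap1, Gclc, Trxr1, Cat, Sod1 and ref(2)P within each kind of cell, while maf-S and Gclm overlap in all 3 kinds of cell and Sod2 in parental cells and the IntS12 line.

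Among the regulators, the transcription factor gene cnc (FBgn0262975, chromosome 3R of BDGP6.54, 23185580 to 23226711, minus strand, 16 annotated transcripts) stood at 160, 193 and 154 CPM in parental libraries A, B and C with copper, against 99.1, 106 and 98.1 CPM without copper. The IntS6 line held 165, 188 and 176 CPM of cnc with copper and 103, 99.9 and 102 CPM without. The IntS12 line held 155, 166 and 175 CPM with copper and 104, 97.8 and 105 CPM without. Without copper all 9 libraries thus lay in a narrow band, and with copper parental library B was the highest of the 9. The rise was 1.67-fold in parental cells (log2 0.74 ± 0.08 SE, edgeR adjusted p = 1.34e-07), 1.73-fold in the IntS6 line and 1.62-fold in the IntS12 line. Counts per gene add up all isoforms of cnc, so the Nrf2-like isoform was not measured apart.

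Keap1, which encodes the repressor of cnc protein (FBgn0038475, chromosome 3R, 17073942 to 17079945, minus strand), was the least abundant of the 10 per exon length and rose more than cnc. Its level was 9.52, 11.2 and 10.1 CPM in parental libraries A, B and C with copper, against 4.93, 3.15 and 3.63 CPM without copper. The IntS6 line held 10.8, 12.2 and 11.6 CPM with copper, against 4.19, 3.86 and 4.82 CPM without copper, and the groups did not overlap in either kind of cell. In the IntS12 line Keap1 stood at 9.19, 11.3 and 11.9 CPM with copper and at 4.63, 4.87 and 3.61 CPM without copper. The fold change was 2.64 in parental cells (log2 1.40 ± 0.16, edgeR adjusted p = 3.85e-07), 2.69 in the IntS6 line and 2.46 in the IntS12 line. Keap1 rested on 50 to 200 counts per library.

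The ratio of cnc to Keap1 per exon length was accordingly lower with copper. It averaged 6.16 in parental cells with copper and 9.90 in parental cells without copper. It was 5.72 in the IntS6 line with copper and 8.95 in that line without, and in the IntS12 line 5.78 with copper and 8.87 without. Over the 3 kinds of cell the log2 ratio fell by 0.65 with copper (exact two-sided permutation test of copper labels within each kind of cell, p = 2.50e-04, the smallest that 8000 arrangements can give, 3.75e-04 adjusted over 3 such ratios). These 3 ratios were tested after the values of the genes had been seen.

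maf-S, the gene of the small Maf partner (FBgn0034534, chromosome 2R, 20640976 to 20641668, plus strand), stood at 5.63 ± 0.168 CPM in parental cells with copper, against 4.94 ± 1.17 CPM without copper (SD, n = 3). Its log2 fold change with copper was 0.19 ± 0.20 in parental cells and 0.24 ± 0.21 in the IntS6 line. In the IntS12 line maf-S held 7.54, 5.55 and 6.29 CPM with copper and 5.98, 3.13 and 4.88 CPM without, so the groups overlapped (log2 0.46 ± 0.20, edgeR adjusted p = 0.0745). Without IntS12 library A (no copper) the log2 fold change was 0.70 with an adjusted p of 0.0183, and maf-S was also called without a filter on low counts (0.0347) and with the replicate block (0.0375). With 47 to 123 counts per library, maf-S had the largest standard errors of the 10 genes.

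**Figure D2:**
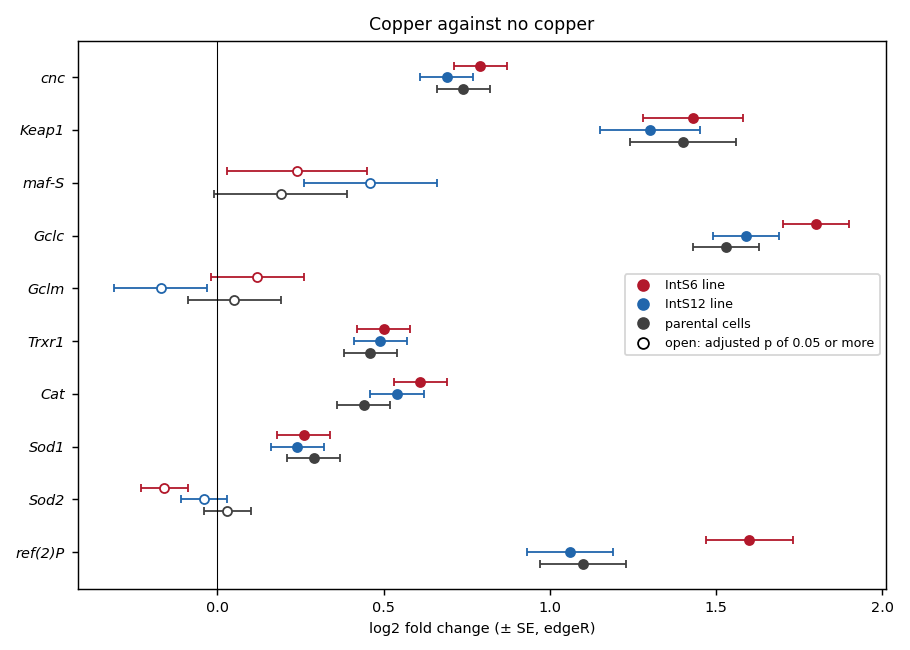
log2 fold change of each gene with copper against without copper (horizontal axis, ± SE) in the IntS6 line, the IntS12 line and parental cells, filled where the adjusted p is under 0.05. Gclc, Keap1 and ref(2)P lie farthest to the right in each kind of cell, and ref(2)P stands at 1.60 in the IntS6 line, 1.06 in the IntS12 line and 1.10 in parental cells.

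Glutathione synthesis starts with glutamate-cysteine ligase, whose catalytic subunit is encoded by Gclc (FBgn0040319, chromosome X, 8102181 to 8116147, minus strand) and whose modifier subunit is encoded by Gclm (FBgn0046114, chromosome 3R, 22685006 to 22686510, minus strand). Gclc had the largest rise of the 10 genes in all 3 kinds of cell. It stood at 32.1, 37.0 and 32.5 CPM in parental libraries A, B and C with copper, against 13.1, 10.7 and 11.5 CPM without copper. Gclc reached 39.4, 44.8 and 40.2 CPM in the IntS6 line with copper, against 13.7, 10.7 and 11.2 CPM without copper. The 3 IntS6 libraries with copper were the highest of all 18. The IntS12 line held 34.6, 32.7 and 34.4 CPM with copper and 11.2 ± 1.24 CPM without (SD, n = 3), within the range of parental cells under each condition except for IntS12 library B without copper, at 10.00 CPM. The rise was 2.88-fold in parental cells (log2 1.53 ± 0.10, edgeR adjusted p = 2.08e-10), 3.49-fold in the IntS6 line (1.80 ± 0.10, 1.09e-11) and 3.02-fold in the IntS12 line (1.59 ± 0.10, 1.29e-10).

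Gclm gave no such rise. In parental cells it stood at 8.24, 8.54 and 7.35 CPM in libraries A, B and C with copper and at 8.08, 7.70 and 7.62 CPM without copper. In the IntS6 line the values were 6.50, 8.05 and 8.62 CPM with copper and 7.66, 6.99 and 6.59 CPM without, and in the IntS12 line 7.90, 6.30 and 8.87 CPM with copper and 7.67, 10.00 and 8.28 CPM without. All groups overlapped their counterparts, and the log2 fold changes were 0.05 ± 0.14 in parental cells, 0.12 ± 0.14 in the IntS6 line and -0.17 ± 0.14 in the IntS12 line. Gclm rested on 93 to 153 counts per library.

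The balance between the subunit transcripts therefore shifted towards Gclc. Per exon length, Gclc stood above Gclm in every library with copper and below it in every library without. That crossing rests on the merged exon lengths, 4402 bases for Gclc and 1505 for Gclm. In CPM, Gclc was already the higher in parental cells without copper, at 11.8 ± 1.22 against 7.80 ± 0.246 (SD, n = 3). The mean ratio of Gclc to Gclm was 1.85 in the IntS6 line with copper and 0.572 without, 1.52 in the IntS12 line with copper and 0.443 without, and 1.44 in parental cells with copper and 0.514 without. The log2 ratio was 1.65 higher with copper over the 3 kinds of cell (exact permutation p = 2.50e-04, the smallest possible, 3.75e-04 adjusted over the 3 ratios). This ratio is taken within a library and does not depend on how libraries are scaled.

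**Figure D3:**
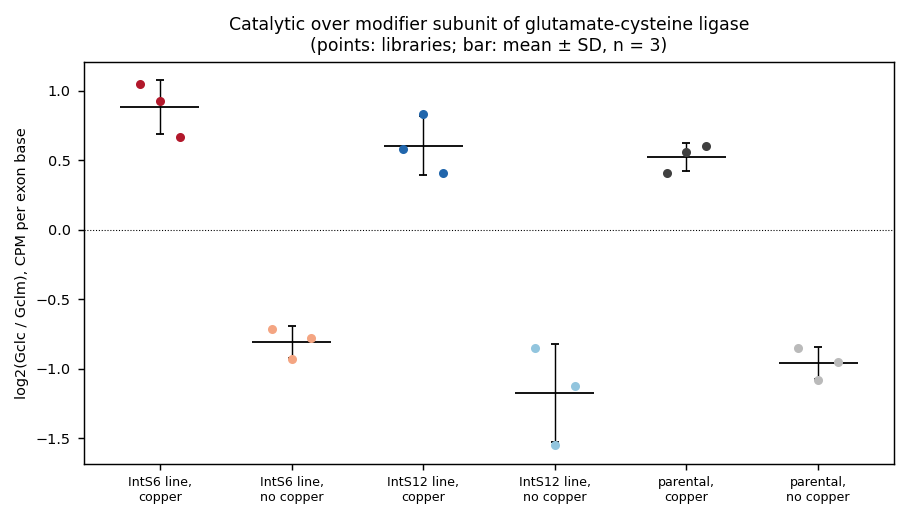
log2 ratio of Gclc to Gclm per exon base (vertical axis) in each library, with mean ± SD of the 3 libraries per group. The 9 libraries with copper lie between 0.41 and 1.05 and the 9 without copper between -1.55 and -0.71.

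Trxr1 (FBgn0020653, chromosome X, 8242528 to 8248033, plus strand) encodes thioredoxin reductase, which in flies also keeps glutathione reduced because they lack a glutathione reductase. It stood at 132, 152 and 133 CPM in parental cells with copper, against 109, 105 and 89.3 CPM without copper. This was a 1.38-fold rise (log2 0.46 ± 0.08, edgeR adjusted p = 8.87e-05), beside 1.42-fold in the IntS6 line and 1.40-fold in the IntS12 line. Exons of sni on the other strand share 13.8% of the exon bases of Trxr1. The sources used here do not give the strand setting of the counting.

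Cat (FBgn0000261, chromosome 3L, 18822604 to 18828188, plus strand), the gene of the hydrogen peroxide-degrading catalase, held 42.6, 43.9 and 43.0 CPM in parental cells with copper and 31.4, 32.0 and 31.9 CPM without copper. Its replicates were tight, with an SD of 0.668 CPM with copper and 0.325 CPM without. The rise was 1.36-fold in parental cells (log2 0.44 ± 0.08, edgeR adjusted p = 7.55e-05), 1.53-fold in the IntS6 line and 1.46-fold in the IntS12 line.

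The superoxide dismutase genes behaved differently from each other. Sod1 (FBgn0003462, chromosome 3L, 11112281 to 11113740, minus strand), which encodes the cytosolic copper- and zinc-dependent enzyme, held 77.3, 68.0 and 78.7 CPM in parental cells with copper, against 64.0, 59.8 and 58.8 CPM without copper. Its rise was the smallest of the 7 called, at 1.23-fold in parental cells (log2 0.29 ± 0.08, edgeR adjusted p = 0.00586), 1.20-fold in the IntS6 line (adjusted p = 0.0109) and 1.18-fold in the IntS12 line (adjusted p = 0.0217). Without IntS6 library B (no copper) the rise in the IntS6 line had an adjusted p of 0.101. The rise in the IntS12 line lost its call with library sizes alone (adjusted p = 0.0676) and without IntS12 copper library A (0.0535) or C (0.0606) or IntS12 library B without copper (0.112).

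Sod2 (FBgn0010213, chromosome 2R, 16772785 to 16773915, minus strand), which encodes the mitochondrial manganese enzyme, held 39.3, 42.3 and 42.9 CPM in parental cells with copper and 38.9, 43.2 and 39.8 CPM without copper (log2 0.03 ± 0.07). In the IntS6 line it stood at 37.0, 35.2 and 37.1 CPM with copper and 39.2, 45.2 and 38.0 CPM without (log2 -0.16 ± 0.07, edgeR adjusted p = 0.0712). These 2 groups did not overlap, but the difference was not called, and the share of all genes that separated in this way was not counted. The adjusted p was 0.0488 without rRNA genes and 0.0273 without IntS6 library C. The log2 ratio of Sod1 to Sod2 was 0.32 higher with copper over the 3 kinds of cell (exact permutation p = 5.00e-04, 5.00e-04 adjusted over the 3 ratios).

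ref(2)P (FBgn0003231, chromosome 2L, 19542468 to 19545548, plus strand) encodes the fly counterpart of mammalian p62, an autophagy receptor for ubiquitinated proteins, and is a known cnc target in flies. It held 79.0, 110 and 77.8 CPM in parental libraries A, B and C with copper, against 38.4, 42.1 and 44.5 CPM without copper. The IntS6 line held 110, 139 and 117 CPM with copper, against 45.7, 36.7 and 38.2 CPM without copper. The IntS12 line held 68.9, 86.8 and 95.0 CPM with copper, against 40.0, 38.3 and 41.8 CPM without copper. Levels without copper were alike in the 3 kinds of cell, and those with copper varied most between libraries, parental library B standing above A and C. The rise was 2.14-fold in parental cells (log2 1.10 ± 0.13, edgeR adjusted p = 8.15e-07), 3.04-fold in the IntS6 line (1.60 ± 0.13, 2.59e-09) and 2.09-fold in the IntS12 line (1.06 ± 0.13, 1.41e-06). Exons of CG10337 on the other strand share 7.2% of its exon bases.

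Per kilobase of exon, the order of levels in parental cells without copper was Sod1 (82.8 CPM per kb), Sod2 (40.0), Trxr1 (32.1), ref(2)P (17.4), Cat (15.9), cnc (11.0), maf-S (7.65), Gclm (5.18), Gclc (2.67) and Keap1 (1.13). Of these neighbours, ref(2)P and Cat overlapped between libraries. With copper, Sod1 remained first at 102 CPM per kb in parental cells, and Trxr1 (44.2), Sod2 (40.9) and ref(2)P (37.1) followed, each overlapping the next of these. Gclc (7.68) then stood above Gclm (5.35), and Keap1 was still last at 2.98. Merged exon length was used for every gene, which understates genes with alternative exons such as cnc.

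The lines without copper, in which the transgenes were already above parental levels, gave no call among these genes. In the IntS6 line without copper against parental cells without copper, 0 of 10 genes were called by edgeR or by DESeq2, 0 had an unadjusted p under 0.05, and log2 fold changes ran from -0.14 to 0.14. Of all genes, 0.208% were called in that comparison. The IntS12 line without copper likewise gave 0 calls by either tool and 0 genes with an unadjusted p under 0.05, with log2 fold changes from -0.08 to 0.17 and 0.0367% of all genes called. The largest standard error of a log2 fold change was 0.21 in each comparison, for maf-S.

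Induced IntS6 was set against parental cells given the same copper. ref(2)P was 1.37-fold higher in the IntS6 line with copper (log2 0.45 ± 0.12, n = 3 per group, edgeR adjusted p = 0.0213), and it was the 1 member called, where 8.91% of all genes were called in either direction. The lowest IntS6 library and the highest parental library, B, both stood at 110 CPM, so the groups touched. Libraries of the same letter correlated weakly in this comparison (0.14 to 0.24), and the labels state no pairing. Within each letter the IntS6 library was the higher one in 3 of 3 pairs, a pattern that was not counted over all genes. With the letter as a block the edgeR adjusted p was 0.00876. The call ended when only these 2 groups were fitted (adjusted p = 0.0856) and without parental copper library A (log2 0.37, adjusted p = 0.107) or C (0.36, 0.119) or IntS6 copper library B (0.35, 0.127). With DESeq2 the adjusted p was 0.00896.

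Gclc was next, at 41.5 ± 2.90 CPM in the IntS6 line with copper and 33.8 ± 2.73 CPM in parental cells with copper (SD, n = 3; log2 0.29 ± 0.09, edgeR adjusted p = 0.0506). All 3 IntS6 libraries lay above all 3 parental ones. Gclc was called under 7 of 25 alternatives, among them the replicate letter as a block (adjusted p = 0.0390), which made the members called 2. Cat and Sod2 also had groups that did not overlap and were not called, with 47.9 ± 2.20 CPM of Cat in the IntS6 line with copper and 43.2 ± 0.668 CPM in parental cells with copper (adjusted p = 0.251). Sod2 stood at 36.5 ± 1.06 CPM in the IntS6 line with copper and 41.5 ± 1.91 CPM in parental cells with copper (log2 -0.19 ± 0.07, adjusted p = 0.116). How many of all genes separated in this way between these groups was not counted, so it only describes Gclc, Cat and Sod2. The other 6 genes had log2 fold changes between -0.14 for Sod1 and 0.17 for Keap1, and none was called by edgeR or DESeq2. The summed plasmatocyte markers were also higher in the IntS6 line with copper, at 441 to 563 CPM against 338 to 386 CPM in parental cells with copper, and their part in these differences was not tested.

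**Figure D4:**
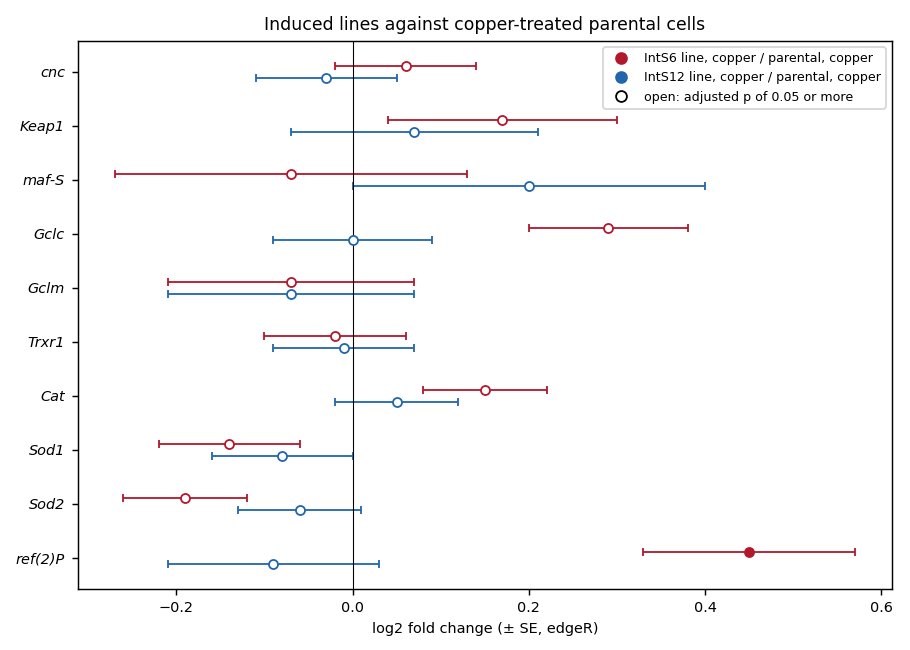
log2 fold change (horizontal axis, ± SE) of each gene in the IntS6 line with copper and in the IntS12 line with copper, each against parental cells with copper, filled where the adjusted p is under 0.05. The 1 filled point is ref(2)P in the IntS6 line at 0.45, and the points of the IntS12 line lie between -0.09 and 0.20.

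Induced IntS12 was called for 0 of the 10 genes against parental cells with copper, by edgeR and by DESeq2, with 0 genes at an unadjusted p under 0.05 and 0.0245% of all genes called. Set against each other with copper, the IntS6 line and the IntS12 line differed in 1 member, ref(2)P, at 122 ± 15.2 CPM in the IntS6 line and 83.6 ± 13.3 CPM in the IntS12 line (log2 0.55 ± 0.12, edgeR adjusted p = 0.00791), where 5.80% of all genes were called. All 3 IntS6 libraries lay above all 3 IntS12 libraries, and the share of all genes that separated in this way was not counted. The call ended without IntS12 copper library A (log2 0.42, adjusted p = 0.0697) or IntS6 copper library B (0.44, 0.0599). Gclc stood at log2 0.29 ± 0.09 in this comparison, with an adjusted p of 0.0680, and was called under 5 of 25 alternatives, among them no filter on low counts (0.0480) and only these 2 groups fitted (0.0393). This comparison and that with parental cells share the IntS6 copper libraries.

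A larger copper response in a line than in parental cells was tested as a difference of log2 fold changes. Between the IntS6 line and parental cells 0 of 10 genes were called by edgeR or DESeq2, where 1.16% of all genes were called by edgeR, and 1 gene, ref(2)P, had an unadjusted p under 0.05. Its difference was 0.50 ± 0.18 with an edgeR adjusted p of 0.250. Without parental copper library B that difference was 0.68 with an adjusted p of 0.0354, and without a filter on low counts it was 0.48 with an adjusted p of 0.00664. In the fit without a filter its SE was 0.12, against 0.18 with the filter. Gclc had a difference of 0.28 ± 0.15 and an adjusted p of 0.542. In the IntS12 line 0 genes were called by either tool and 0 had an unadjusted p under 0.05, where 0.0122% of all genes were called.

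MtnA, the copper-induced metallothionein gene whose promoter drives the transgenes, was higher, like ref(2)P, in the IntS6 line than in parental cells when both had copper. Its level in libraries A, B and C with copper was 495, 612 and 540 CPM in the IntS6 line, 448, 317 and 397 CPM in the IntS12 line, and 285, 413 and 260 CPM in parental cells. MtnA was 1.72-fold higher in the IntS6 line than in parental cells with copper (log2 0.78 ± 0.13, edgeR adjusted p = 2.56e-04), and parental library B was the highest parental library for both genes. In the IntS12 line with copper, library A had the highest MtnA and the lowest ref(2)P. Whether the exposure to copper differed between these libraries was not tested.

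**Figure D5:**
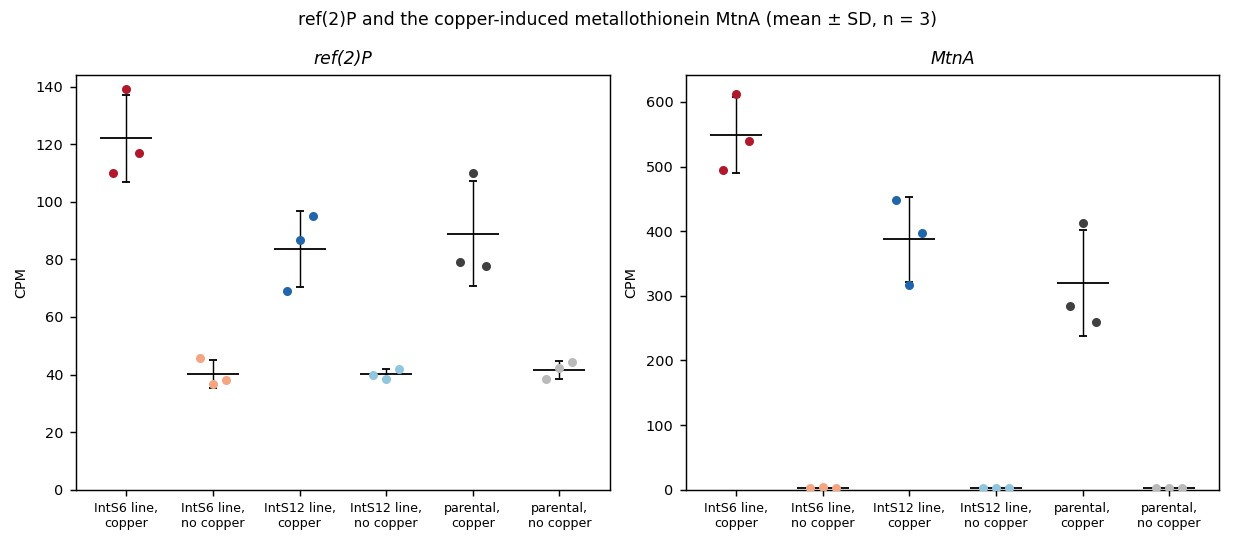
CPM of ref(2)P (left) and MtnA (right) in each library of the 6 groups, with mean ± SD (n = 3) and vertical axes from 0. For both genes the mean is highest in the IntS6 line with copper, at 122 CPM for ref(2)P and 549 CPM for MtnA.

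Other genes of the pathway were followed in fixed lists. The shares of all genes called with copper in parental cells, 19.3% higher and 19.4% lower with a median log2 of 0.00, are the background for the counts that follow. Of the 7 tested genes of glutathione synthesis and peroxidase activity 3 rose and 1 fell (median log2 1.13). GstD1, a glutathione transferase gene widely used as a cnc reporter, averaged 161 ± 40.7 CPM with copper and 49.1 ± 4.28 CPM without copper, a 3.28-fold rise. Gtpx, a glutathione peroxidase-family gene, averaged 40.1 ± 7.60 CPM with copper and 15.0 ± 2.54 CPM without (2.69-fold), and GstS1 rose 2.19-fold, while GstO1 was 1.99-fold lower. Of 15 listed detoxification genes described as cnc-responsive, 7 passed the filter on low counts. Of these 7 genes 4 rose, among them GstE7 (5.16-fold), GstE3 (3.34-fold) and Cyp12d1-p (3.69-fold), and Cyp6w1 fell to 1.10 ± 0.649 CPM with copper, against 3.61 ± 0.423 CPM without. Levels of GstE3 and Cyp12d1-p stayed under 2 CPM in parental cells, and Cyp12d1-p has a near-identical copy, Cyp12d1-d, whose reads the counting could split. In parental cells without copper GstE3 averaged 0.422 CPM and Cyp12d1-p 0.231 CPM. The filter may thus have kept these genes only through the copper groups, which would raise the share of 4 in 7 above the background.

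NADPH, the reductant that thioredoxin reductase uses, is supplied by enzymes of which 3 of 5 rose in parental cells (median log2 0.29): Men, malic enzyme, 1.53-fold, Zw, glucose-6-phosphate dehydrogenase, 1.47-fold, and Idh 1.22-fold. The calls were 5 of 5 higher in the IntS6 line, where 23.2% of all genes rose, and 4 of 5 in the IntS12 line, where 19.2% rose. Tested as a difference of log2 fold changes from parental cells, 0 of the 5 were called in either line. Of all genes, 1.16% were called in that test for the IntS6 line and 0.0122% for the IntS12 line. In the thioredoxin and peroxiredoxin list 2 of 10 tested genes were higher, Prx2 (1.43-fold) and MsrA (1.42-fold), and 3 lower, including Prx4 (1.71-fold lower) and Grx1 (1.79-fold lower), with a median log2 of 0.03, close to the shares of all genes (19.3% higher, 19.4% lower). Of 6 other tested genes for superoxide and peroxide handling 3 rose, which were Sesn (3.08-fold), Irc (1.80-fold) and the oxidase gene Duox (1.19-fold).

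Of 7 tested genes for turnover and cofactors of cnc protein 1 rose and 3 fell in parental cells (median log2 -0.10), beside 19.3% and 19.4% of all genes. Roc1a, a RING subunit of cullin ubiquitin ligases, rose 1.18-fold, and the ubiquitin ligase gene sip3 (1.21-fold), the bromodomain gene fs(1)h (1.19-fold) and Pgam5 (1.38-fold) were lower. Among 18 tested autophagy genes 5 rose and 1 fell in parental cells (median log2 0.14), and in the IntS6 line 4 rose and 0 fell, where 23.2% of all genes rose. Those called in parental cells included Atg8a, whose protein binds p62-type receptors, at 101 ± 21.0 CPM with copper and 61.4 ± 5.24 CPM without copper (1.64-fold), Atg17 (1.59-fold), Atg1 (1.48-fold) and bchs (1.43-fold).

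Between the IntS6 line and parental cells, both with copper, 6 of the 60 tested genes of these lists were called higher and 0 lower, beside 7.45% higher and 1.46% lower of all genes, a share near the background. Men was 1.38-fold higher (156 ± 3.51 CPM in the IntS6 line with copper and 112 ± 11.6 CPM in parental cells with copper, edgeR adjusted p = 0.00776), Sesn 1.87-fold (adjusted p = 0.00379) and GstE3 2.26-fold (adjusted p = 0.00399). GstD1 was 1.32-fold higher with an adjusted p of 0.0562. None of the 6 came from the autophagy, turnover or thioredoxin lists.

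By the root mean square difference of centred log2 CPM over the 6 group means, the genes most like cnc were atl, eIF2Bdelta, trbl, cnn and AnxB11, at 0.019 to 0.036. Those most like Gclc were Naprt, Rdh1, scyl, CG7627 and Cyp6d4, at 0.057 to 0.085. The group means that chose these genes include the copper groups, so their copper responses were fixed by the choice.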

How the data were processed

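The authors deposited 1 table of estimated counts per FlyBase gene for 18 libraries, which are not whole numbers in 13.4% of cells (53 of the 180 member values, tolerance 1e-06). The submitters' processing notes name Trimmomatic 0.39, featureCounts and the build dm6/BDGP6. The sources used here do not give the aligner, annotation release, strand or multi-mapping settings. Libraries were strand-specific, per the labels' protocols. Columns were matched to samples by library name and groups taken from titles.

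Counts were rounded and fitted in R 4.3.3 with edgeR 4.0.16: 6 group means, TMM factors, the default filter on low counts (8174 of 13350 genes with any count), and the quasi-likelihood F-test with 12 residual degrees of freedom per gene (common biological coefficient of variation 8%). Standard errors are log2 fold changes over the square root of F. rRNA genes, 70.2% to 73.4% of counts, stayed in library sizes. Coordinates and exon lengths come from the BDGP6.54 annotation. Member genes and lists were chosen with earlier results of these data known. All members are named; each other list names up to 4 genes with the smallest p for copper in parental cells. TER94 had no matching identifier and was not analysed here.

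On simulated counts for copper in parental cells (8174 genes), 66% of genes changed 1.5-fold, 86% changed 2-fold and 0.09% of unchanged genes were called. The simulation left 7974 genes unchanged, whereas 3159 genes were called in the real comparison, so these rates need not hold there. No pair of replicates agreed within counting noise over the tested genes (chi-square per degree of freedom 4.71 to 15.79). The rRNA genes were included there and may weigh heavily, so these values need not describe the other genes. Same-letter deviations correlated at 0.21, 0.24 and 0.14 for copper-treated IntS6 cells against copper-treated parental cells, where unlike letters reached at most 0.02. For copper in parental cells they correlated at 0.12, 0.11 and 0.28, but copper library B with library A without copper reached 0.13. Copper in the IntS6 line (0.11, 0.09, 0.09) and the IntS6 line against parental cells, both without copper (0.14, 0.08, 0.11), gave weaker values, all above those of unlike letters. The labels state no pairing, and the main fit used none. Alternatives were DESeq2 1.42.0, RLE factors, library sizes alone, no rRNA genes, no filter, only the groups compared, a replicate block, and leaving out each library.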

Additional observations from a re-analysis of the deposited data

How the results depend on the processing

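The count of members called with copper was 7 in parental cells under every alternative, and 6 to 8 in the IntS6 line and in the IntS12 line. No called member changed direction in any of them. The 3 log2 ratios kept their direction and side of the threshold with a replicate block (1.65, 0.32 and -0.65) and when each library was left out; these alternatives were chosen after seeing the data. For the copper-treated IntS6 line against copper-treated parental cells, the second member called beside ref(2)P was Gclc: members called were 2 with RLE factors, library sizes alone or the replicate block, 0 with only those groups fitted, and 0 to 2 when a library was left out. All genes called there were 454 in the fit of those groups alone, against 728. For the IntS6 line against the IntS12 line, members called were 2 (ref(2)P and Gclc) without a filter, with only the groups compared or with the replicate block, and 0 to 2 when a library was left out, and all genes called then ran from 307 to 557. The difference of copper responses between the IntS6 line and parental cells held 1 member without a filter and 0 to 1 when a library was left out. All genes called in it were 238 without a filter, 62 with only the groups compared, 151 with the replicate block and 43 to 99 when a library was left out, against 95. For IntS12 with copper against parental cells with copper, all genes called were 22 without a filter, 1 with only the groups compared, 6 with the block and 5 with DESeq2, and 1 to 7 when a library was left out, against 2. For IntS12 without copper they were 5 without rRNA genes, 32 without a filter, 1 with only the groups compared, 6 with the block and 8 with DESeq2, and 1 to 6 when a library was left out, against 3. For IntS6 without copper they were 48 without a filter, against 17, and for the difference of responses in the IntS12 line 8 without a filter, against 1. The cause was not tested. Of 77 member values that were not called, 5 were called under some alternative and 38 changed sign under some alternative. Keap1, maf-S and Gclm, with the fewest counts, had the widest errors.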
